A study of Mus musculus with 9 samples.

Results

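The short hairpin RNA shMed1 #2 was compared with a non-targeting control hairpin (NTC) in D2A1-d, a line of mouse breast carcinoma cells. The comparison rests on the 3 samples whose titles carry shMed1 #2 and the 3 whose titles carry NTC, which are 6 of the 9 samples of the series; the other 3 carry a further Med1 hairpin, shMed1 #4. In every group the cells had been transduced with a hairpin and kept in medium with fetal bovine serum and antibiotics, with no other treatment, and the labels give the genotype of the NTC cells as WT and that of the hairpin cells as Med1 knockdown. Total RNA was sequenced and the deposited values are raw counts per gene. The labels call the samples biological replicates without saying whether they came from separate transductions or cultures, and they do not say whether the cells were pooled or cloned, so the p-values measure no more than how far these samples spread, and that spread may be technical.

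The protein made from Med1 belongs to Mediator, a large complex that bridges DNA-bound transcription factors and RNA polymerase II. The subunit lies in the middle part of the complex and carries the motifs that ligand-bound nuclear receptors recognise. In the mammary gland it is known as a coactivator of the estrogen receptor and of luminal genes.

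Library totals were 8123918 to 8504098 counts in NTC and 8773974 to 8879982 with shMed1 #2, and a count of 3 in a library corresponded to 0.338 to 0.369 CPM (the usual unit of counts scaled to the library total). Transcripts of the mitochondrial genome took 3.73% to 3.99% of the counts in NTC and 3.89% to 3.97% with shMed1 #2. Of 55335 genes in the files, 13611 had enough counts to be tested. Of 15 luminal markers, 6 were at 0 in all 6 samples, among them Epcam, Cldn3, Cldn4 and Pgr. Of 8 basal markers only the keratin Krt5 was at 0. The basal list summed to 253 to 266 CPM in NTC and 216 to 231 CPM with shMed1 #2, most of it from Acta2. Of the 3 basal markers tested, 2 were called lower and 0 higher. The summed level of the luminal list was 64.5 to 65.4 CPM in NTC and 27.7 to 31.7 CPM with shMed1 #2, most of it from the keratin Krt18; of its 3 tested members Krt18 and Krt8 were called lower and the transcription factor gene Elf3 higher (0.52). The mesenchymal list, which holds Vim and Fn1, summed to 4321 to 4510 CPM in NTC and 4773 to 4962 CPM with shMed1 #2, but its members went both ways. Of 9 tested, Vim (0.57) and Cdh2 (0.63) were called higher and Fn1 (-0.20) and Snai1 (-0.26) lower. Markers of fibroblasts and pericytes summed to 176 to 191 CPM in NTC and 79.4 to 87.2 CPM with shMed1 #2, and the 4 of 7 that could be tested (Pdgfra, Pdgfrb, Col1a1 and Col1a2) were called lower. Leukocyte markers summed to 17.7 to 20.2 and 14.6 to 17.2 CPM with 6 of 12 at 0, and red cell globins were at 0. Fewer cells of a type and less RNA per cell cannot be told apart in bulk samples.

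Med1 itself stood at 85.6, 87.5 and 79.8 CPM in the NTC samples and at 22.1, 25.2 and 24.7 CPM with shMed1 #2. The groups did not overlap. Its log2 fold change, shMed1 #2 over NTC, was -1.81 (95% interval -1.96 to -1.66), with an adjusted p of 5.67e-36 in edgeR's quasi-likelihood test with Benjamini-Hochberg adjustment over all genes tested, the test used throughout.

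Most of the response was small in size. Of the 13611 genes, 5947 were called at an adjusted p under 0.05, which is 43.7% of those tested. Of these, 2964 (21.8% of those tested) were higher and 2983 (21.9%) were lower. When the libraries were scaled by their totals alone in place of TMM (trimmed mean of M values), the same split was 2384 higher and 3598 lower. The median absolute log2 fold change of a called gene was 0.36. Changes under 1.25-fold made up 2554 of the calls, those from 1.25 to under 1.5-fold 1870, those from 1.5 to under 2-fold 910, and 613 genes changed at least 2-fold. At that size the calls were unequal, with 102 genes higher (0.749% of those tested) and 511 lower (3.75%), and past 4-fold there were 3 higher and 131 lower. With a test against a minimum change of 1.2-fold, 818 genes were higher and 1349 lower. For 8867 genes the 95% interval of the fold change lay inside 1.5-fold either way.

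Among genes of high abundance (a mean of at least 7 log2 CPM over all 9 samples), the detoxifying quinone reductase Nqo1 had the highest positive fold change. Nqo1 (ENSMUSG00000003849.8, protein-coding, chromosome 8 of GRCm38, 107388225 to 107403206, minus strand) stood at 166, 160 and 170 CPM in NTC and at 440, 414 and 402 CPM with shMed1 #2. All 3 hairpin samples lay far above the control samples. The log2 fold change of Nqo1 was 1.34 (SE 0.0448, adjusted p = 1.1e-41). The other 7 on the high side were Ccn1, Plaur, Anxa1, Col4a2, Lamc1, Tiparp and Fat1, with log2 fold changes from 1.03 for Fat1 to 1.27 for Ccn1. Plaur, the receptor of urokinase at the cell surface, went from 93.0 ± 4.79 to 215 ± 7.07 CPM (SD, n = 3 each). Anxa1, a phospholipid-binding annexin, went from 251 ± 6.65 to 541 ± 19 CPM. Col4a2 and Lamc1 encode chains of the basement membrane proteins collagen IV and laminin. Tiparp, an ADP-ribosyltransferase that represses the aryl hydrocarbon receptor, rose by 1.03 on the log2 scale, and Fat1 is a giant atypical cadherin.

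On the low side of the abundant genes, beside Spp1, Scd2, Creld2 and Pdia4, stood the ceruloplasmin gene Cp, which encodes the copper-carrying ferroxidase of plasma, and Sh3d19, Spcs3 and Rcc2. Cp stood at 703, 663 and 684 CPM in NTC and at 166, 151 and 173 CPM with shMed1 #2 (log2 fold change -2.07, SE 0.0452, adjusted p = 3.45e-55). No hairpin sample of Cp came near a control sample. Sh3d19, an adaptor that binds ADAM proteases (ENSMUSG00000028082.14, chromosome 3, 85971109 to 86130526), stood at 245, 239 and 258 CPM in NTC and at 104, 104 and 96.1 CPM with shMed1 #2, a log2 fold change of -1.28 (SE 0.0486). Spcs3, a subunit of the signal peptidase, averaged 271 CPM in NTC and 112 CPM with the hairpin (-1.27, SE 0.0464). Rcc2, a regulator of mitotic spindle assembly and of the GTPase Rac1, averaged 554 and 252 CPM (-1.14, SE 0.0422). In all 3 genes the groups were apart.

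In the middle range (4 to under 7 log2 CPM) the 8 highest genes included S100a7a, Itga1, Kpna1 and Endod1 beside Rgs16, Itga6 and Lims2. S100a7a, which encodes a calcium-binding protein of the S100 family, stood at 46.5, 45.6 and 41.8 CPM in NTC and at 116, 134 and 134 CPM with shMed1 #2. Its lowest hairpin sample lay well above its highest control sample, and the log2 fold change was 1.52 (SE 0.0648, adjusted p = 2.26e-33). Itga1, the integrin chain of a collagen receptor, rose by 1.22 (SE 0.0796), and Kpna1, an importin alpha, by 1.19 (SE 0.0628).

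The 8 lowest of the middle range included Kcnj2, Trib2, Fads3, Fzd6 and Ccdc18 beside Xist, Enpp2 and Vcam1. Kcnj2, which encodes an inward rectifier potassium channel (ENSMUSG00000041695.2, chromosome 11, 111066164 to 111076821), stood at 46.7, 43.7 and 46.8 CPM in NTC and at 9.08, 6.50 and 9.10 CPM with shMed1 #2, a log2 fold change of -2.47 (SE 0.107, adjusted p = 2e-34). Every hairpin sample was low. Trib2, a pseudokinase scaffold for ubiquitin ligases, fell from 31.1 ± 4.43 to 5.81 ± 1.19 CPM (SD, n = 3 each), and Fzd6, a Wnt receptor, from 27.7 ± 1.64 to 6.12 ± 0.849 CPM. Fads3, a member of the fatty acid desaturase family, fell from 49.6 ± 3.60 to 11 ± 1.90 CPM. Of the 227 genes named by rule, 19 had more than 10% of their exon bases inside exons of another tested gene, nearly always on the other strand, and whether the counting used strand is unknown from the sources at hand. Reads of such pairs cannot be told apart without it. The share was 11% in Xist (with Tsix) and 10.1% in Rgs16.

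Among scarce genes (1 to under 4 log2 CPM) the lowest was Gxylt2, a xylosyltransferase that extends O-glucose on Notch-type repeats. Gxylt2 stood at 7.51, 13.1 and 10.3 CPM in NTC and at 0.345, 0.348 and 0.230 CPM with shMed1 #2, where 2 or 3 reads make up each value. The fitted log2 fold change was -5.00 with a 95% interval from -5.66 to -4.35. Gfra2, a co-receptor for neurturin, averaged 7.86 and 0.654 CPM (-3.56, SE 0.305), and Cldn9, a tight junction claudin, 4.69 and 0.385 CPM (-3.56, SE 0.369). On the high side were Nlrc3, Lamb3, Gpr17 and Kcnab3 beside Parm1, Havcr2, Acta1 and Mrgpre. Lamb3, the beta chain of an epithelial laminin, rose from 2.19 to 6.85 CPM (1.64, SE 0.230), and Gpr17, an orphan receptor, from 3.22 to 10.0 CPM (1.63, SE 0.191).

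**Figure D1:**
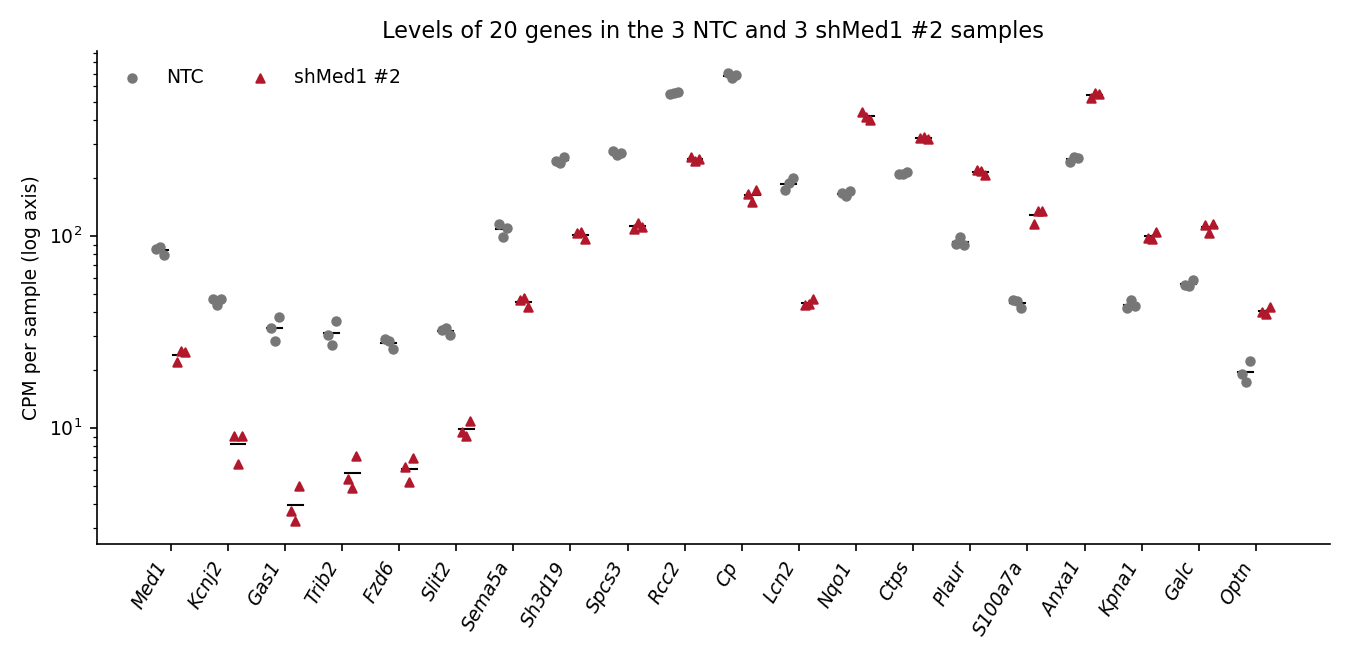
CPM in each of the 3 NTC samples (grey circles) and 3 shMed1 #2 samples (red triangles) for 20 genes named in the text, on a log axis, with the group mean as a black line. In each of the 20 genes the 2 groups are separate, from Med1 (84.3 against 24.0 CPM on average) to Optn (19.5 against 40.4 CPM).

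Promoter sequence is shown for 4 picked genes whose 250 bases before the start site hold the letters of a searched site. Ccn1 and Anxa1 rose and hold the core of a TEAD site. Plaur rose and holds an AP-1 site, and Creld2 fell and holds an ER stress response element. The sequences are RefSeq's on GRCm38.p6, each on its gene's own strand, with the matched letters in capitals. They lie at chr3:145649986-145650235 (minus strand) for Ccn1, chr19:20390672-20390921 (minus strand) for Anxa1, chr7:24462233-24462482 (plus strand) for Plaur and chr15:88819396-88819645 (plus strand) for Creld2.
Ccn1: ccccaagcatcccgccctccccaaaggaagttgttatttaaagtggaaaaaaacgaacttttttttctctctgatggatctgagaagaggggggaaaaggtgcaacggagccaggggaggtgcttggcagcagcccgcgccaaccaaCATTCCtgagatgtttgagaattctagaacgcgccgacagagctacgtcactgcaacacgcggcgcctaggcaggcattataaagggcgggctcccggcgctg
Anxa1: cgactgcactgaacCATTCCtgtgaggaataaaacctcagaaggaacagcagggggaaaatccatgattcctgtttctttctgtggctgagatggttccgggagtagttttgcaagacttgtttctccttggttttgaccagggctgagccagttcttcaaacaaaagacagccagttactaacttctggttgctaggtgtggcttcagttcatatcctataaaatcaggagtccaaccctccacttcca
Plaur: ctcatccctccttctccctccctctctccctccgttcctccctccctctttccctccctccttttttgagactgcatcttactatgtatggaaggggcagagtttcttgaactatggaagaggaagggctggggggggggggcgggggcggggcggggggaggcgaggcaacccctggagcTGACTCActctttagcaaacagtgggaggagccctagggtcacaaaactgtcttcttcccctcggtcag
Creld2: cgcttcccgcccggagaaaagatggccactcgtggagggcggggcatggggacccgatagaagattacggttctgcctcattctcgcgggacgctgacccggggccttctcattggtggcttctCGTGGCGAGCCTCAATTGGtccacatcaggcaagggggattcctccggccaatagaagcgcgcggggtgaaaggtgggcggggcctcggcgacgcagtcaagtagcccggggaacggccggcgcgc
The match began 103 bases before the start site in Ccn1, 236 in Anxa1, 69 in Plaur and 126 in Creld2. A match describes letters and shows no binding.

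The same letters were counted in all genes that had a RefSeq promoter, which were 61 of the 102 genes called at least 2-fold higher, 331 of the 511 called at least 2-fold lower and 9461 of the 13611 tested. Both strands were searched, and CCAAT can overlap the ER stress response element. The TEAD core GGAATG was present in 15 of the 61 higher genes (24.6%), 56 of the 331 lower genes (16.9%) and 10.4% of all. The AP-1 site TGANTCA was in 7 higher genes (11.5%), 18 lower genes (5.44%) and 3.95% of all. The interferon response element, GAAA and GAAA with 2 bases between them, was in 1 higher gene (1.64%), 26 lower genes (7.85%) and 2.54% of all. The CCAAT box was in 12 higher genes (19.7%), 129 lower genes (39.0%) and 37.1% of all. The promoters of the sets also differed in composition: the median number of CpG pairs in the 250 bases was 6 in the higher genes, 10 in the lower genes and 16 in all. The other letters, which were TGACNNNGC (antioxidant response), TCACNCCAC (sterol response), CCAAT and CCACG with 9 bases between them (ER stress response), TNGCGTG (xenobiotic response), TGACGTCA (cyclic AMP response) and the CArG box, were in 16.4%, 1.64%, 0%, 3.28%, 1.64% and 3.28% of the higher genes. In the lower genes they were in 10.6%, 1.21%, 0.302%, 6.34%, 1.21% and 1.21%. In all promoters they were in 12.2%, 0.994%, 0.159%, 6.93%, 2.82% and 1.16%.

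The direction of the response varied with how abundant a gene was. When the tested genes were ranked by mean log2 CPM over all 9 samples and divided into deciles of 1361 or 1362 genes, the share called higher went up through every decile, from 2.65%, 6.69% and 10.5% in the lowest 3, through 22.5% in decile 6, to 39.5% and 49.8% in the highest 2. The share called lower varied less, between 15% in the lowest decile and 26.5% in decile 3, and was 21.6% in the highest. Precision differed across the deciles, with a median SE of 0.38 in the lowest and 0.04 in the highest, so more small changes could be called among abundant genes. The fold changes themselves, which need no call, also shifted: their median log2 fold change was -0.16, -0.14, -0.12, -0.08 and -0.04 in deciles 1 to 5, and 0.00, 0.03, 0.04, 0.07 and 0.10 in deciles 6 to 10. Over all genes tested the median was -0.00346. With shMed1 #4, against the same NTC samples, the medians of the lowest and highest deciles were -0.059 and 0.045.

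**Figure D2:**
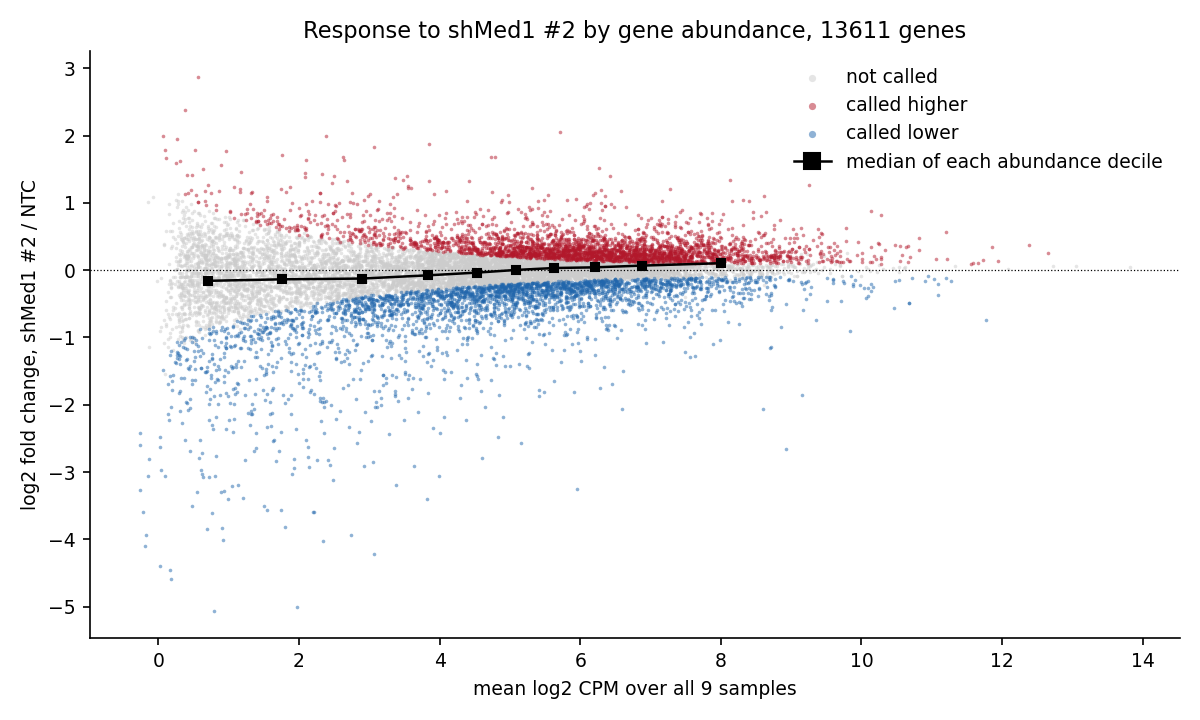
Log2 fold change of shMed1 #2 over NTC against mean log2 CPM for the 13611 genes tested, with called genes in red (higher) and blue (lower) and the median of each abundance decile as black squares. The medians climb from -0.16 to 0.10, and changes below -2 lie mostly among scarce genes.

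Each shMed1 #2 sample showed the shift. All samples were set against a shared reference, the NTC mean, which contains the NTC samples themselves. Against the mean of the NTC samples, the median difference in the highest decile was 0.102, 0.104 and 0.103 on the log2 scale in the 3 shMed1 #2 samples and -0.00188, 0.00624 and -0.00371 in the NTC samples. In the lowest decile it was -0.175, -0.115 and -0.135 with shMed1 #2 and 0.0359, -0.0161 and 0.0151 in NTC. The hairpin samples agreed closely with one another and lay outside the range of the controls in both deciles. Ranking by the NTC samples alone, whose own errors enter the fold change with the opposite sign, gave medians of -0.04 in the lowest and 0.07 in the highest decile. In that ranking decile 2 had the most negative median (-0.14). Ranking by the shMed1 #4 samples, which are on neither side of the comparison, gave -0.18 and 0.11, and choosing the tested genes by them as well gave -0.16 and 0.11. These samples also carry a Med1 hairpin, as do most samples of the main ranking. A gene lower with both hairpins therefore ranks lower in both rankings. Ranking by CPM per kilobase of exonic length gave -0.29 and 0.09. With no filter on low counts the lowest decile held genes with hardly any reads and its median was 0. Scaling by library totals alone moved the medians to -0.21 and 0.06.

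**Figure D3:**
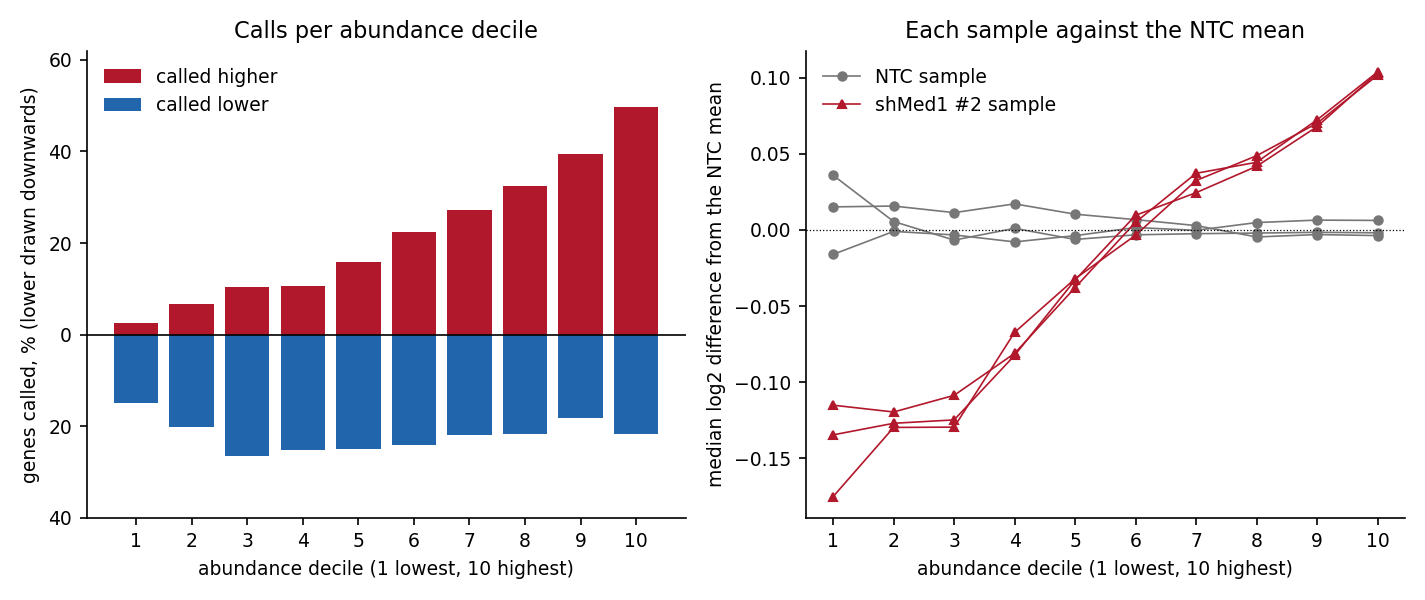
Left, the percentage of genes called higher (red, upwards) and lower (blue, downwards) in each abundance decile; right, the median log2 difference of each sample from the NTC mean in each decile. The called-higher share grows from 2.65% to 49.8%, and the 3 shMed1 #2 lines run together from below 0 in the lowest decile to about 0.10 in the highest.

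Large decreases were concentrated at the scarce end. Called decreases of at least 2-fold numbered 175, 139 and 77 in deciles 1 to 3 and 10, 5 and 10 in deciles 8 to 10, while called increases of that size numbered 29, 16 and 16 and then 8, 3 and 6. A gene is tested if at least 3 of the 9 samples have enough reads, whatever their group. A scarce gene can therefore pass through 1 group alone, and such a gene tends to be higher in that group. At the other end, the 8 most abundant genes in NTC were mt-Co1, Eef1a1, mt-Cytb, mt-Nd1, Actb, Hsp90ab1, Calr and mt-Nd5. Calr, the calcium-binding chaperone calreticulin, fell from 4371 ± 69.8 to 2616 ± 36.7 CPM (SD, n = 3 each), and the actin gene Actb rose from 4512 ± 100 to 5863 ± 158 CPM. The elongation factor gene Eef1a1 (8495 and 8889 CPM, adjusted p = 0.136), Hsp90ab1, mt-Co1 and mt-Cytb did not pass the test. The genes mt-Nd1 and mt-Nd5, for subunits of respiratory complex I, were called higher by 0.26 and 0.13 on the log2 scale, the call of mt-Nd5 being lost with offsets for GC content and length.

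The GC content of a gene's exons also ran with the response. From the quintile of genes with the lowest GC (median 41.3%) to that with the highest (57.9%), the share called higher went from 29.6% to 11.7% and the share called lower from 15% to 34.8%, and the median log2 fold change from 0.07 to -0.13. In the highest GC quintile the 3 shMed1 #2 samples lay at -0.108, -0.134 and -0.135 against the NTC mean and the NTC samples at -0.0238, 0.0163 and 0.0114. Offsets fitted for GC content and length remove this trend by construction. With them 2994 genes were higher and 2873 lower, and the medians of the lowest and highest abundance deciles were -0.19 and 0.10. The shift with abundance was as large with the offsets as without them. With shMed1 #4, against the same NTC samples and without offsets, the medians of the lowest and highest GC quintiles were 0.020 and -0.036. Whether the GC trend came from the libraries or the cells was not tested.

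Calls were also spread unevenly over the chromosomes. On chromosome 7, 108 of 1008 genes were higher and 338 lower, with a median log2 fold change of -0.14, and the 3 shMed1 #2 samples lay at -0.125, -0.127 and -0.142. On chromosome 2 the balance was the opposite, 348 of 1055 higher and 172 lower (median 0.08), as on chromosome 1 (242 of 800 higher, 117 lower) and chromosome 18 (115 of 359 higher, 50 lower). With shMed1 #4, against the same NTC samples, the medians were -0.059 on chromosome 7, 0.081 on chromosome 2, 0.036 on chromosome 1 and 0.034 on chromosome 18. With the GC and length offsets, 131 and 304 were called with shMed1 #2 on chromosome 7, 340 and 160 on chromosome 2, 222 and 126 on chromosome 1 and 103 and 57 on chromosome 18. The difference between these chromosomes was thus also present with the offsets, which are a fit and do not match genes. Abundance also differed between chromosomes. Among genes of at least 4 log2 CPM, 91 of 566 on chromosome 7 were higher and 198 lower (median -0.07). On chromosome 2, 315 of 712 such genes were higher and 109 lower (median 0.12). What part abundance had in the difference was not tested.

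**Figure D4:**
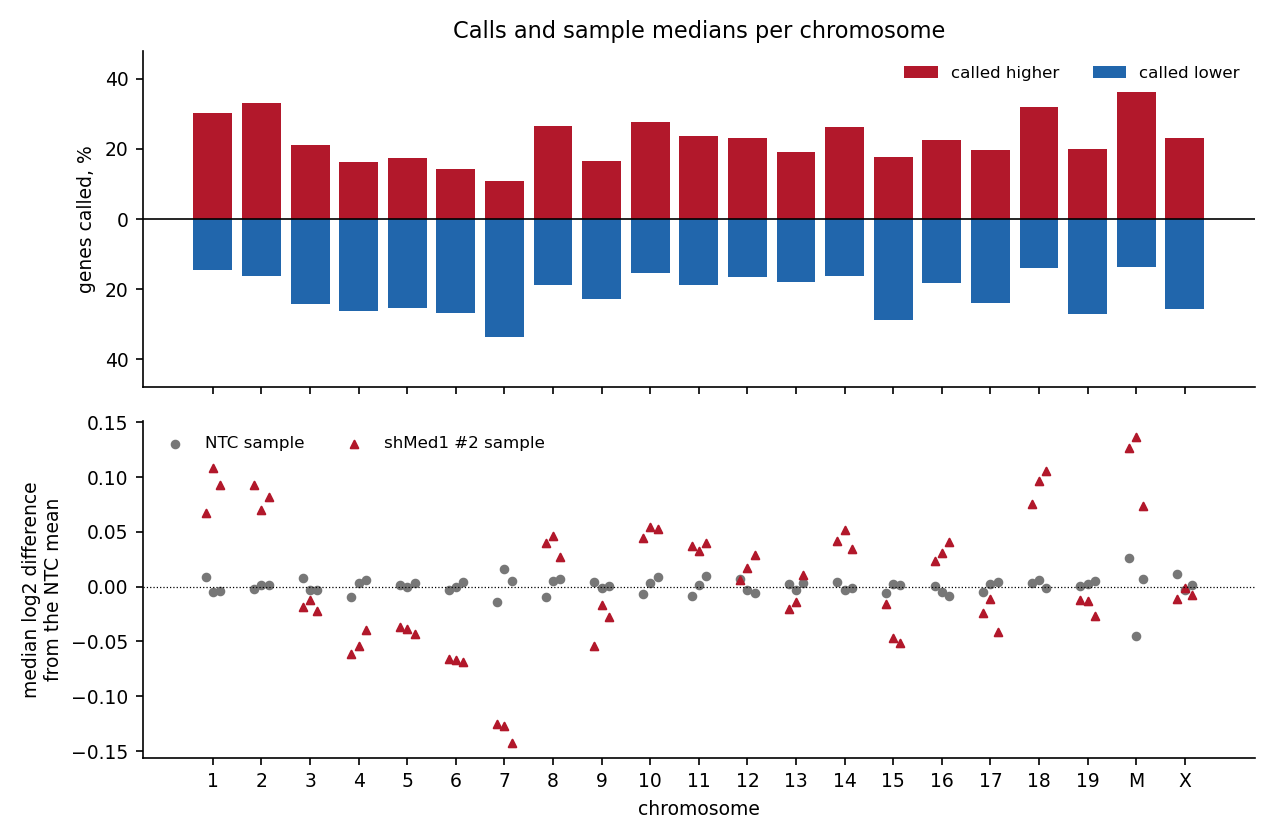
Above, the percentage of tested genes called higher (red, upwards) and lower (blue, downwards) on each chromosome, M being the mitochondrial genome; below, the median log2 difference of each NTC sample (grey circles) and each shMed1 #2 sample (red triangles) from the NTC mean. Chromosome 7 is lowest with sample medians from -0.142 to -0.125, while all 3 hairpin samples lie above the NTC samples on chromosomes 1, 2 and 18.

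Within chromosomes, stretches of 20 Mb stood apart when genes of at least 4 log2 CPM were considered. The windows named were picked after all those with at least 10 such genes had been seen. The first 20 Mb of chromosome 2 held 41 such genes, of which 32 were called higher and 1 lower, with a median of 0.32. On the whole of chromosome 2, 315 of 712 such genes were higher and 109 lower. With shMed1 #4, against the same NTC samples, the median of the first 20 Mb was 0.26. From 100 to 120 Mb on chromosome 10, 24 of 36 were higher and 1 lower (median 0.27, with shMed1 #4 0.10). On the whole of chromosome 10, 153 of 416 such genes were higher and 56 lower. On chromosome X the windows up to 60 Mb and those beyond had medians of opposite sign. From 0 to 20 Mb 3 of 31 genes were higher and 19 lower (median -0.30), from 20 to 40 Mb 1 of 22 was higher and 12 were lower (-0.26), and from 40 to 60 Mb 2 of 18 were higher and 7 lower (-0.15). In the windows from 60 to 180 Mb the medians were 0.14, 0.15, 0.13, 0.24, 0.21 and 0.16. The lowest shMed1 #2 sample of the window from 140 to 160 Mb (0.161) lay above the highest NTC sample (0.0277), and the highest shMed1 #2 sample of the window from 0 to 20 Mb (-0.262) lay below the lowest NTC sample (0.00204). With the GC and length offsets the window from 0 to 20 Mb had 1 gene higher and 20 lower, that from 20 to 40 Mb 0 and 17, that from 60 to 80 Mb 16 and 6, that from 100 to 120 Mb 9 and 7, and that from 140 to 160 Mb 17 and 3. In the window from 100 to 120 Mb they took the median from 0.13 to 0.05. With shMed1 #4, against the same NTC samples, the medians of the 9 windows from 0 to 180 Mb were -0.10, -0.04, -0.04, 0.11, 0.06, 0.01, -0.00742, 0.11 and 0.10. Xist, which coats a silenced X chromosome, averaged 154 CPM in NTC and 16.2 CPM with shMed1 #2, and its part in the pattern was not tested.

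Because the direction varied with abundance, each of 44 gene lists was read beside the calls and median of all tested genes in the same abundance deciles, called the matched value here. These lists cover pathways chosen with earlier results of these data known, so their counts are a description and no list was tested as a set.

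**Figure D5:**
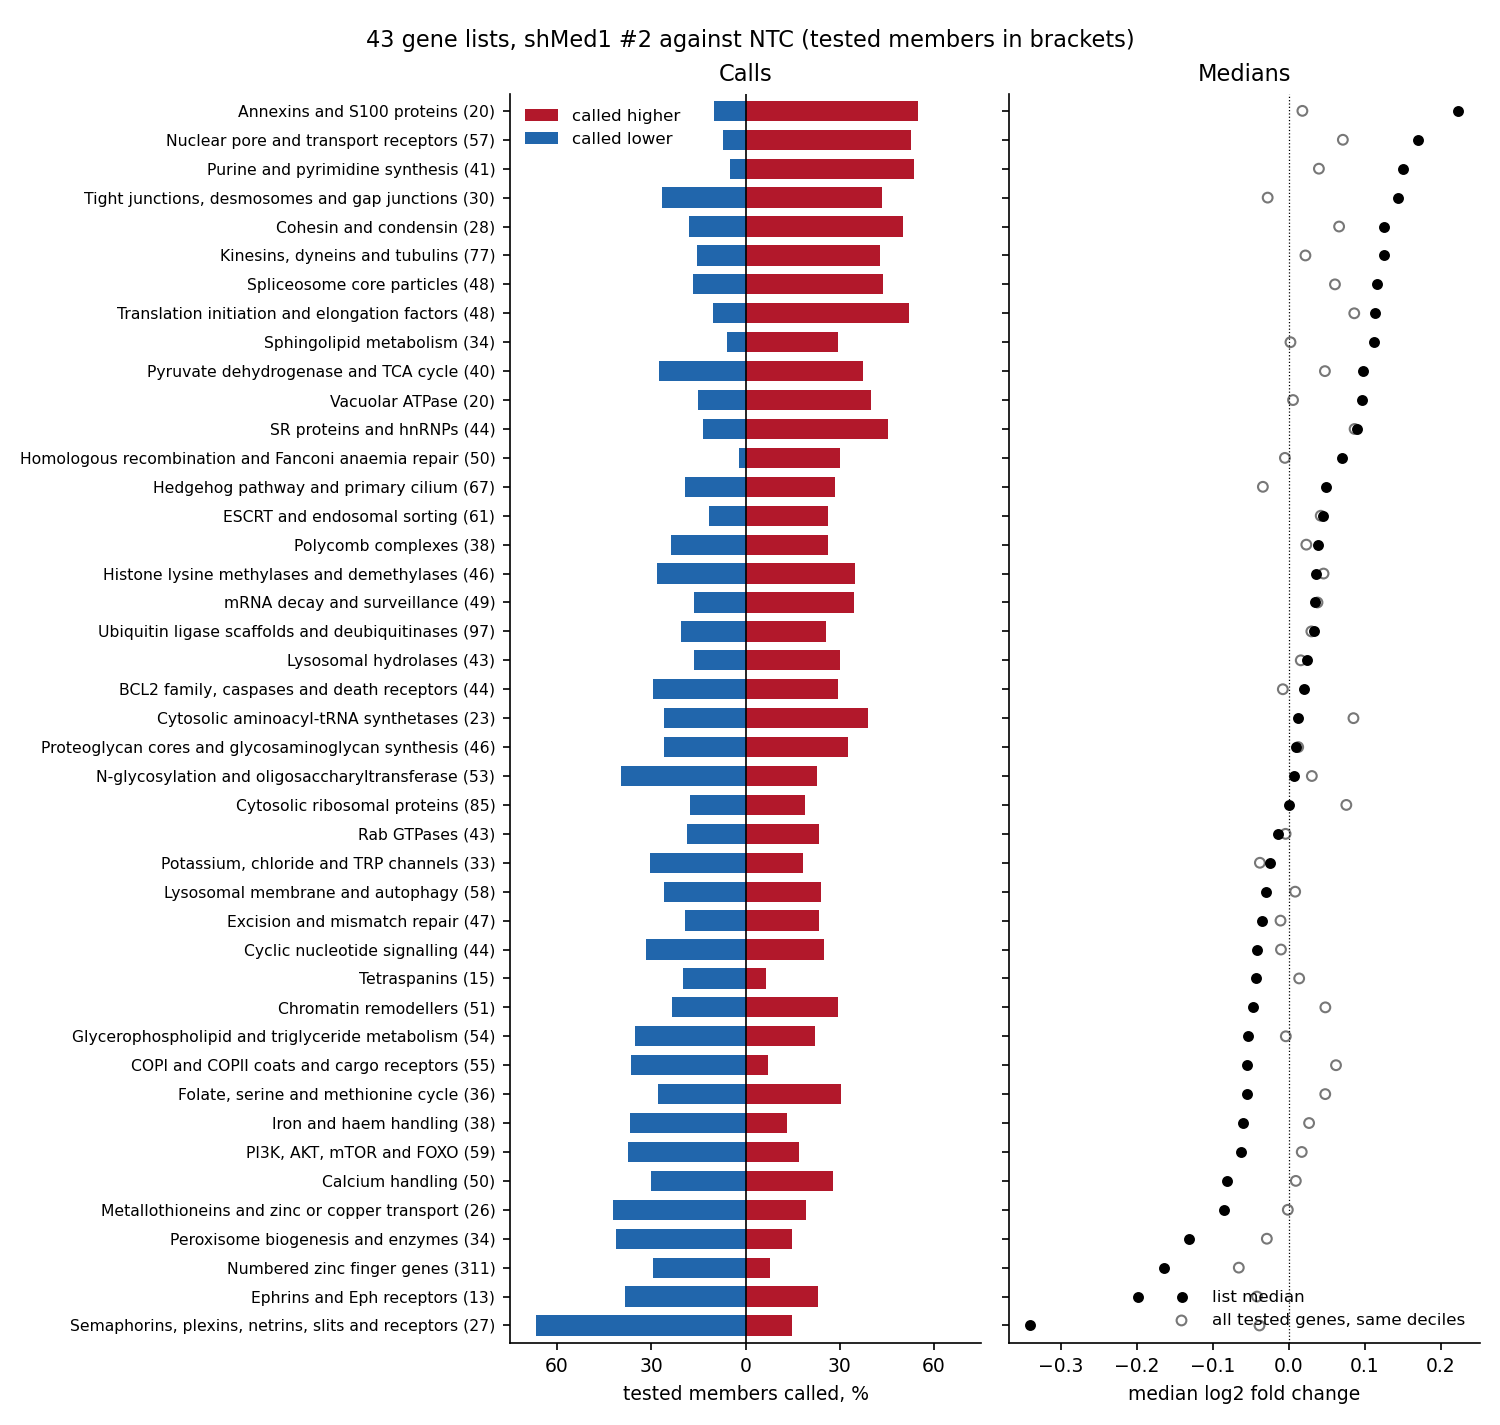
For 43 of the gene lists, ordered by median and with the number of tested members in brackets, the percentage of members called higher (red, right) and lower (blue, left) and the median log2 fold change (black) beside that of all tested genes in the same abundance deciles (open circles). Semaphorins and their receptors have the lowest median (-0.34, matched value -0.04) and annexins and S100 proteins the highest (0.22, matched value 0.02).

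Guidance cues and receptors that passed the test were mostly lower. Of 52 listed semaphorins, plexins, netrins, slits and receptors, 27 were tested, 18 were called lower and 4 higher, with a median of -0.34 against a matched value of -0.04; 66.7% were lower where the matched share was 22.3%. Slit2, a secreted ligand of Robo receptors (ENSMUSG00000031558.15, chromosome 5, 47983138 to 48307733), stood at 32.2, 33.0 and 30.6 CPM in NTC and at 9.54, 9.06 and 10.8 CPM with shMed1 #2. The groups lay well apart, and the log2 fold change was -1.70 (SE 0.110, adjusted p = 1.14e-23). Sema5a, a membrane semaphorin with thrombospondin repeats, averaged 108 ± 8.56 and 45.3 ± 2.58 CPM (-1.26, SE 0.0637). Sema4d, the ligand of Plxnb1, averaged 2.98 and 0.231 CPM (-3.61, 95% interval -4.54 to -2.68), and Plxnb1 fell by 0.99. The semaphorin co-receptors Nrp1 and Nrp2 fell by 0.32 and 0.35. Sema3a, a secreted repulsive cue, rose by 0.74, and Neo1, Plxna1 and Unc5b were the other 3 called higher. With the GC and length offsets 14 were lower and 5 higher. The call of Sema6c (-1.21, adjusted p = 0.0129) was lost with DESeq2 (adjusted p = 0.0931) and without NTC replicate 3 (0.0789) or shMed1 #2 replicate 2 (0.0571). Its values with all samples were 1.70, 1.33 and 2.08 CPM in NTC and 0.920, 0.581 and 0.691 CPM with the hairpin.

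Other surface receptors moved in both directions. Of 13 tested Eph receptors and ephrins, 3 were higher and 5 lower (23.1% and 38.5%, matched 20.2% and 23.6%). Ephb6, which lacks kinase activity, averaged 9.23 and 2.16 CPM (-2.09, SE 0.212). In the list of the Hedgehog pathway and primary cilium, 19 of 67 were higher and 13 lower (28.4% and 19.4%, matched 18.5% and 23.9%). The median was 0.05 against a matched -0.03. The Hedgehog co-receptor Gas1 (ENSMUSG00000052957.8, chromosome 13, 60174405 to 60177365) stood at 33.1, 28.4 and 37.6 CPM in NTC and at 3.68, 3.25 and 4.96 CPM with shMed1 #2. It was the most changed member at -3.06 (SE 0.141, adjusted p = 1.25e-32), with the groups far apart. An antisense gene covers 19.9% of the exon bases of Gas1. The partner of Gas1 at the membrane, Cdon, fell by 0.78, the receptor Ptch1 by 0.32, the transducer Smo by 0.16 and the effector Gli1 by 0.45. Genes for the cilium's transition zone and transport, Tctn2 (0.66), Bbs5 (0.61) and Cep290 (0.49), were among those higher.

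Junction genes moved in both directions, also within a kind such as the plakophilins. Of 80 listed genes of tight junctions, desmosomes and gap junctions, 30 were tested. Of these, 13 were higher and 8 lower (43.3% and 26.7%, matched 22.3% and 21.5%), and 6 of the 8 fell at least 2-fold. The decreases included Cldn9, plakoglobin Jup (9.31 to 2.84 CPM, -1.71, SE 0.202), periplakin Ppl (-1.49), and the plakophilins Pkp3 (-1.08) and Pkp1 (-1.04). The increases included the plakophilins Pkp2 (0.94) and Pkp4 (0.81), the scaffold Tjp1 (0.26) and the connexin Gja1 (0.41). Luminal markers differed beside these genes and not all in 1 direction: Krt18 counts were 415, 423 and 440 in NTC and 162, 175 and 152 with shMed1 #2, those of Elf3 were 45, 51 and 62 and then 85, 78 and 71, and those of Krt7, too scarce to test, 1, 2 and 3 and then 10, 5 and 7. What part the share of such cells had in these changes was not tested.

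Annexins and S100 proteins, which bind calcium and membranes, had the highest median of the lists. Of 30 listed, 20 were tested, and 11 were higher and 2 lower (55% and 10%, matched 31.9% and 21.2%). Their median was 0.22 against a matched 0.02. Among the listed genes, which do not include S100a7a, the highest after Anxa1 was Anxa8 (2.59 to 4.92 CPM, 0.93, SE 0.236). S100a11 (0.62) and Anxa3 (0.47) followed, then Ahnak, S100a13, S100a6 and S100a10 between 0.32 and 0.42. Anxa9 was lower (-0.78, SE 0.213). S100a16 averaged 1.79 and 0.884 CPM (adjusted p = 0.0344) and lost its call with DESeq2 (adjusted p = 0.198) and when any of 5 samples was left out (0.0577 to 0.157).

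Nucleotide synthesis genes that passed the test were nearly all higher. Of 41 tested genes of purine and pyrimidine synthesis, 22 were higher and 2 lower (53.7% and 4.88%, matched 34.4% and 22%), with a median of 0.15 against 0.04. Ctps, the CTP synthase, stood at 210, 210 and 214 CPM in NTC and at 324, 327 and 320 CPM with shMed1 #2. The groups did not overlap and differed by far more than their spread (0.61, SE 0.0434, adjusted p = 1.28e-21). Umps, which completes UMP synthesis, rose by 0.48, the ribonucleotide reductase subunits Rrm2 and Rrm1 by 0.41 and 0.15, thymidylate synthase Tyms by 0.27 and thymidine kinase Tk1 by 0.25. The 2 called lower were Dut (-0.30), the dUTPase, and Cad (-0.13), which starts pyrimidine synthesis. In the folate, serine and methionine cycle 11 of 36 were higher and 10 lower (30.6% and 27.8%, matched 35.2% and 21.8%). There the polyamine gene Amd1 rose by 0.52, while Cth, which makes cysteine from cystathionine, fell from 36.8 to 15.3 CPM (-1.26, SE 0.0979).

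Nuclear transport genes that passed the test were also mostly higher. Of 57 tested nucleoporins and transport receptors, 30 were higher and 4 lower (52.6% and 7.02%, matched 40.9% and 20.5%), with a median of 0.17 against 0.07. Kpna1 stood at 41.8, 46.3 and 42.8 CPM in NTC and at 97.6, 95.7 and 105 CPM with shMed1 #2, and it was the only member past 2-fold. The others ranged up to 0.44 for the scaffold nucleoporin Nup93 (adjusted p = 3.91e-15), so the called changes were small. Ipo13, an importin that also exports, fell by 0.48. Homologous recombination and Fanconi anaemia genes had 15 of 50 higher, 1 lower and 34 not called (30% and 2%, matched 23.4% and 23.2%). The gene called lower was Mus81, the structure-specific nuclease (-0.41, SE 0.0843). Those higher included Rbbp8 (0.39), which starts end resection, Fanca (0.37, with 10.5% of its exon bases shared with Zfp276), Brca1 (0.23), Atr (0.27) and Chek1 (0.27). In excision and mismatch repair 11 of 47 were higher and 9 lower (23.4% and 19.1%, matched 22.6% and 23.8%). Cohesin and condensin had 14 of 28 higher and 5 lower (50% and 17.9%, matched 39.4% and 21.4%), with no called member past 0.29 on the log2 scale in either direction. Kinesins, dyneins and tubulins had 33 of 77 higher and 12 lower (42.9% and 15.6%, matched 31% and 21.4%), among the former Tubb6 (0.77), Kif5b (0.55) and Kif20a (0.40). The dynein light chain Dynlt3, on chromosome X, was the lowest member, at 41.0, 38.1 and 40.9 CPM in NTC and 12.9, 8.36 and 11.9 CPM with the hairpin (-1.85, SE 0.105).

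Early secretory pathway genes that passed the test were mostly lower. Of 55 genes for COPI and COPII coats and cargo receptors, all tested, 20 were lower and 4 higher (36.4% and 7.27%, matched 20.9% and 38.3%), with a median of -0.06 against 0.06. Tmed2, a cargo receptor of a family of small membrane proteins, stood at 220, 219 and 224 CPM in NTC and at 137, 123 and 127 CPM with shMed1 #2. Tmed2 fell by 0.78 (SE 0.0469, adjusted p = 1.78e-25), and the groups were clearly separate. Its relative Tmed3 fell by 0.82, the COPII coat subunits Sec24d and Sec31a by 0.58 and 0.45, the KDEL receptors Kdelr3, Kdelr1 and Kdelr2 by 0.37, 0.31 and 0.26, and the COPI subunits Copb1 and Copa by 0.23 and 0.20. Copz2, Arf1, Arf4 and Tmed5 were higher, by 0.16 to 0.42. In N-glycosylation 21 of 53 were lower and 12 higher (39.6% and 22.6%, matched 22.4% and 30.7%). Mgat3, which adds the bisecting N-acetylglucosamine, fell from 66.6 ± 8.57 to 19.4 ± 3.57 CPM (-1.78, SE 0.0956). The oligosaccharyltransferase subunits Ostc, Rpn1 and Ddost fell by 0.58, 0.55 and 0.38, and the trimming enzyme Man2a1 rose by 0.78.

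Lysosomal genes showed no common direction. Hydrolases had 13 of 43 higher and 7 lower (30.2% and 16.3%, matched 28.4% and 22.2%). Lysosomal membrane and autophagy genes had 14 of 58 higher and 15 lower (24.1% and 25.9%, matched 25.1% and 22.8%). Galc, which degrades galactosylceramide, stood at 55.6, 54.8 and 58.6 CPM in NTC and at 114, 104 and 116 CPM with shMed1 #2 (0.98, SE 0.0597, adjusted p = 3.53e-25). Optn, an autophagy receptor, stood at 19, 17.4 and 22.2 CPM in NTC and at 39.9, 39.0 and 42.4 CPM with the hairpin (1.05, SE 0.0912). Both were well above the controls in every hairpin sample. The acid lipase Lipa fell by 0.75, the lysosomal transcription factors Tfeb, Tfe3 and Mitf by 0.57, 0.43 and 0.37, and the autophagy kinase Ulk1 by 0.45. The proton pump subunits were divided, with 8 of 20 higher and 3 lower (40% and 15%, matched 26.8% and 21.4%). Among them Atp6v0e2 fell by 1.27 and Atp6v1b2 by 0.66, while Atp6ap1 rose by 0.48. Among Rab GTPases, 10 of 43 were higher and 8 lower (23.3% and 18.6%), near the matched 25.6% and 22.01%. Rab28 went from 78.8 ± 2.96 to 34.2 ± 2.09 CPM (-1.20, SE 0.0679).

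Negative regulators led the changes in the PI3K and mTOR list, of which 22 of 59 were lower and 10 higher (37.3% and 16.9%, matched 22.3% and 27.5%). Ddit4, an inhibitor of the mTOR kinase complex, stood at 31.2, 33.4 and 40.5 CPM in NTC and at 13.8, 9.17 and 12.3 CPM with shMed1 #2 (-1.57, SE 0.129, adjusted p = 1.3e-12). The amino acid and stress sensors Sesn3, Castor2, Sesn2 and Sesn1 fell by 1.31, 1.01, 0.94 and 0.67, and the phosphatase Inpp4b by 0.96. In each of Ddit4, Sesn3, Castor2 and Inpp4b the groups did not overlap. The adaptor Irs1 (-0.58), the regulatory subunit Pik3r1 (-0.67) and Mtor itself (-0.28) were lower too, so the decreases were not of inhibitors alone. Pdpk1, the kinase that activates AKT, rose by 0.71.

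Metal and lipid handling genes gave several further decreases. In iron and haem handling 14 of 38 were lower and 5 higher (36.8% and 13.2%, matched 21.99% and 30.4%). The decreases were led by Cp and by Lcn2, a siderophore-binding lipocalin. Lcn2 stood at 172, 188 and 199 CPM in NTC and at 43.8, 44.1 and 46.6 CPM with shMed1 #2 (-2.06, SE 0.0627, adjusted p = 1.7e-37). The transferrin receptor Tfrc fell by 0.43 and the ferritin chains Ftl1 and Fth1 by 0.38 and 0.12. The metallothioneins Mt1, Mt2 and Mt3, which buffer zinc and copper, fell by 0.57, 0.61 and 1.27. In their list, which also holds zinc and copper transport, 11 of 26 were lower and 5 higher (42.3% and 19.2%, matched 22.8% and 25.8%). Of the exon bases of Mt2, 73.5% lie in exons of an antisense gene, so its counts are uncertain. Mt1 averaged 256 ± 4.93 and 173 ± 9.34 CPM. Peroxisomal genes had 14 of 34 lower and 5 higher (41.2% and 14.7%, matched 22.9% and 19.8%), among the lower ones the import factors Pex19 (-0.94), Pex26 (-0.73), Pex7 (-0.50), Pex10 (-0.44) and Pex13 (-0.35). Catalase, Cat, rose by 0.30. In glycerophospholipid and triglyceride metabolism 19 of 54 were lower and 12 higher (35.2% and 22.2%, matched 22.6% and 24.2%). Lpin1, the phosphatidate phosphatase, fell from 27.2 ± 2.55 to 8.85 ± 2.47 CPM (-1.62, SE 0.127), and the ethanolamine branch gene Pcyt2 by 0.84. Of 34 tested sphingolipid genes, 10 were higher, 2 lower and 22 not called (29.4% and 5.88%, matched 25.5% and 22.4%); those higher included Degs1, which makes ceramide (0.69), the ceramide carrier Col4a3bp (0.49) and the sphingomyelin synthases Sgms1 (0.47) and Sgms2 (0.58). Ormdl1, an inhibitor of serine palmitoyltransferase, fell by 0.45.

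Ribosomal protein genes stood out by how little they moved for their abundance. Of 85 tested, 16 were higher and 15 lower, where 43.4% higher and 21.6% lower were the matched shares, and their median was 0.000664 against 0.08. Scaled by library totals alone their median was -0.05. The called members ranged from -0.24 (Rplp2) to 0.35 (Rpl36a) on the log2 scale. Ribosomal proteins have many near-identical pseudogenes, and how reads were divided among copies is not stated. Translation factors followed their abundance more closely, with 25 of 48 higher and 5 lower (matched 44.9% and 21.4%). The recycling factor Abce1 averaged 575 and 809 CPM (0.49, SE 0.0398), and the cap-binding protein Eif4e rose by 0.38. Splicing lists had 21 of 48 core particle genes higher and 8 lower, and 20 of 44 SR proteins and hnRNPs higher and 6 lower. The shares called higher were 43.8% and 45.5%, near the matched 37.7% and 44.8%.

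Genes with a numbered Zfp name encode zinc finger proteins, many of which repress transposons and lie in clusters. Of 400 listed, 311 were tested, 24 were higher and 92 lower (7.72% and 29.6%, matched 15.1% and 23.3%), with a median of -0.16 against a matched -0.07. Of the 83 on chromosome 7, 1 was higher and 38 lower (median -0.32). Of the 228 elsewhere, 23 were higher and 54 lower (median -0.10), and of the 925 other genes on chromosome 7, 107 were higher and 300 lower (median -0.12). The largest decrease of a named member was that of Zfp773, from 7.59 ± 1.81 to 2.12 ± 0.286 CPM (-1.83, SE 0.227, adjusted p = 8.87e-11). With DESeq2 the list had 17 higher and 53 lower. Members of a cluster share sequence, so their counts are uncertain where reads could fall on several of them.

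Chromatin and death genes gave both directions. Polycomb genes had 10 of 38 higher and 9 lower (26.3% and 23.7%, matched 29.0% and 22.3%). Ezh2 (0.25), Suz12 (0.24) and Eed (0.18) were among the former and Ring1 (-0.65), Cbx7 (-0.58) and Ezh1 (-0.39) among the latter. Chromatin remodellers had 15 of 51 higher and 12 lower (29.4% and 23.5%, matched 35.6% and 20.8%). The ATPase Smarca2 fell from 7.90 ± 0.521 to 2.11 ± 0.977 CPM (-1.89, SE 0.226), while its paralog Smarca4 changed by -0.14. In the list of BCL2 proteins, caspases and death receptors 13 of 44 were higher and 13 lower (29.5% and 29.5%, matched 23.6% and 22.4%). The pore-forming gasdermin Gsdmd went from 9.94, 10.7 and 11.3 CPM in NTC to 1.72, 1.74 and 0.807 CPM (-2.89, SE 0.228), and Bmf, a death-promoting member of the BCL2 family, from 4.17 to 0.769 CPM (-2.42, SE 0.325). The adaptor Fadd fell by 0.98 and the receptor Fas by 0.76, while Tnfrsf21 rose by 0.80, Casp8 by 0.48 and the survival gene Mcl1 by 0.33. The proapoptotic pair Bax and Bak1 split, with Bax at -0.34 and Bak1 at 0.37.

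Ion channel and signalling genes moved in both directions, with some steep decreases among them. Of 144 listed potassium, chloride and TRP channel genes, 33 were tested. Of these, 6 were higher and 10 lower (18.2% and 30.3%, matched 20.99% and 20.97%). Among the lower, 4 fell at least 2-fold: Kcnj2, Kcnd1 (-3.03, SE 0.446), the mechanosensitive cation channel Trpv4 (-2.48, SE 0.494) and Kcnab2 (-1.04). Among the higher, 1 rose at least 2-fold. In calcium handling 14 of 50 were higher and 15 lower (28% and 30%, matched 27.8% and 21.7%). The plasma membrane pump Atp2b4 averaged 2.55 and 0.538 CPM (-2.21, SE 0.396), and the channel subunit Cacna1a 42.6 and 17.5 CPM (-1.28, SE 0.0929). The store sensor Stim1 rose by 0.53 and its partner Orai2 by 0.86. In cyclic nucleotide signalling 11 of 44 were higher and 14 lower (25% and 31.8%, matched 25.0% and 22.6%). Among the lower was Pkia, the inhibitor of protein kinase A, at 43.8, 42.5 and 44.7 CPM in NTC and 20.5, 16.8 and 18 CPM with shMed1 #2 (-1.24, SE 0.0890). In the proteoglycan list, 15 of 46 were higher and 12 lower (32.6% and 26.1%, matched 28.4% and 21.7%). Lowest were Gpc6 (-3.51, SE 0.486), Bgn (-1.39) and the hyaluronan synthase Has2 (-1.0), and the syndecans Sdc3 (0.54) and Sdc2 (0.45) were among the higher. The SEs of Kcnd1, Trpv4, Atp2b4 and Gpc6 exceeded the median SE of the lowest abundance decile (0.38). Whether these genes passed the filter through NTC alone was not examined. The same holds for Gfra2, Cldn9, Sema4d, Sema6c and Bmf, all scarce with shMed1 #2. Gxylt2 had 2 or 3 reads in each shMed1 #2 sample, under the filter's minimum count of 10, so other samples carried it into the test.

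Each of the remaining lists held calls in both directions. Genes of the tricarboxylic acid cycle and pyruvate entry had 15 of 40 higher and 11 lower (37.5% and 27.5%, matched 35.3% and 21.3%). Idh1, the cytosolic isocitrate dehydrogenase, was lowest at -1.01. Ubiquitin ligase scaffolds and deubiquitinases had 25 of 97 higher and 20 lower (25.8% and 20.6%, matched 31.1% and 21.7%). Endosomal sorting genes had 16 of 61 and 7 (26.2% and 11.5%, matched 32.7% and 21.6%), and mRNA decay genes 17 of 49 and 8 (34.7% and 16.3%, matched 32.2% and 21.6%). Histone lysine methylases and demethylases had 16 of 46 and 13 (34.8% and 28.3%, matched 33.9% and 21.1%). Cytosolic aminoacyl-tRNA synthetases had 9 of 23 and 6 (39.1% and 26.1%, matched 44.4% and 20.8%). Of 15 tetraspanins, 1 was higher and 3 were lower (6.67% and 20%, matched 30.3% and 22.1%).

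Some of these changes were much smaller with shMed1 #4, with which Med1 had a log2 fold change of -1.71. The difference between the hairpins, shMed1 #4 minus shMed1 #2, was called for 3540 genes, 26.0% of those tested. Rab28, at -1.20 with shMed1 #2, was at -0.02 with shMed1 #4 (79.2, 77.7 and 75.8 CPM), a difference of 1.18 (SE 0.0680, adjusted p = 5.59e-26). Dynlt3 differed by 1.66 (SE 0.107), Sh3d19 by 1.11 (SE 0.0490), Spcs3 by 0.90 (SE 0.0472), Rcc2 by 0.87 (SE 0.0424) and Tmed2 by 0.67 (SE 0.0471), each with its smaller decrease under shMed1 #4. Kcnj2 was at -0.57 and Cldn9 at -0.60 with shMed1 #4, differences of 1.90 and 2.96. S100a7a was at 0.38, a difference of -1.14 (SE 0.0619), and Nqo1 at 0.63 (-0.70, SE 0.0430). Galc (0.69) and Gas1 (-1.68) were called in the same direction with shMed1 #4, and both still differed between the hairpins. For a gene that differed between the hairpins, an effect of Med1 and an effect of the hairpin's own sequence cannot be told apart, and the hairpin sequences were not used here.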

How the data were processed

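RNA of D2A1-d cells was sequenced in 9 samples, 3 for each of 3 hairpins. The authors deposited raw counts per gene, 1 file a sample with 55335 genes; per the submitters' processing notes the tools were STAR and HTSeq and the build GRCm38 (mm10), with no version or strand setting stated there. No line of the files named anything other than a gene. Gene names, positions, lengths and GC content came from GENCODE release M21 for 55154 identifiers, and promoters from RefSeq.

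Genes were kept by edgeR's filterByExpr (minimum count 10), and 13611 were tested. edgeR 4.0.16 (R 4.3.3) was fitted to all 9 samples with TMM scaling, robust quasi-likelihood and Benjamini-Hochberg adjustment, called at 0.05; the contrast was shMed1 #2 minus NTC, and the shMed1 #4 samples served the shared estimate of spread. The SE is the log2 fold change divided by the square root of F. CPM values are TMM-scaled, except in marker sums, which use library totals. Intervals are at 95%, and counting floors of 3 counts cover counting error only. Alternatives used DESeq2 1.42.0, other scalings and filters, the 6 compared samples, a replicate block, offsets for GC content and length, limits on fold size, and each sample left out. The test was tested on simulated data. Figures used matplotlib 3.10.9.

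The comparison, the 44 gene lists and the tests were chosen with earlier results of these data known. Genes were named by rule: Med1; the 8 highest and 8 lowest called genes of 3 abundance tiers (bounds 1, 4 and 7 log2 CPM) with an assigned symbol; up to 4 called members of each list by size; and the 8 most abundant genes in NTC. Other list members and marker genes named in the text were chosen after their values were seen. The chromosome windows, the promoter search and the ranking by shMed1 #4 alone with its own filter were also added after seeing the data. Replicate numbers do not pair the samples: deviations of same-numbered samples correlated at -0.0470, 0.0149 and 0.0412. Some genes named by the rule and 1 of the lists are not reported here.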

Additional observations from a re-analysis of the deposited data

Results flagged for a closer look

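Pex19, Pkia and Cd9 were called in opposite directions with the 2 Med1 hairpins, against the same NTC samples, and the difference itself passed edgeR's quasi-likelihood test. Pex19, the peroxisomal import receptor for membrane proteins, was at -0.94 with shMed1 #2 and 0.22 with shMed1 #4, a difference of 1.15 (adjusted p = 1.47e-22). Pkia, the protein kinase A inhibitor, was at -1.24 and 0.27, a difference of 1.52 (adjusted p = 2.71e-26). Cd9, a tetraspanin, was at -0.24 and 0.15, a difference of 0.395 (adjusted p = 2.37e-11), and 10.7% of its exon bases lie in an antisense gene. Each was lower in 3 of 3 shMed1 #2 samples than in every shMed1 #4 sample.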

How the results depend on the processing

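Of 227 genes named by rule, 223 were called, and 189 kept their direction and side of the threshold under every alternative that gave a value. The uncalled genes Hsp90ab1 (-0.0063 with upper quartile scaling, -0.0246 with library totals), mt-Co1 (-0.0549) and mt-Cytb (-0.0630, both with offsets for GC content and length) changed sign. Against 2964 genes higher and 2983 lower, requiring more than 1.2-fold left 818 and 1349, which its construction explains; DESeq2 gave 2365 and 2204, upper quartile scaling 2603 and 3336, library totals 2384 and 3598, and leaving out 1 sample 2636 to 2793 and 2654 to 2756. With the replicate block, whose numbers do not pair the samples, 2930 were higher and 2962 lower. The median of the highest abundance decile was 0.106 with RLE scaling, 0.0737 with upper quartile scaling, 0.0554 with library totals, 0.0870 with no filter, 0.100 from the 6 compared samples, 0.0995 with the GC and length offsets and 0.111 with DESeq2. Ranked by shMed1 #4 it was 0.105 (0.108 with its own filter), per kilobase 0.0858, by NTC 0.0661, and with 1 sample left out 0.0955 to 0.109. The median of the lowest decile was -0.206 with library totals, 0 with no filter, -0.190 with a stricter filter, -0.190 with the offsets, -0.286 per kilobase and -0.0442 ranked by NTC. Beyond the filter, the cause of these shifts was not tested. Values of 1 to 3 reads, as in Gxylt2, Sema4d and Gpc6, limit the precision of the largest decreases.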
